A study of Mus musculus with 12 samples.

Results

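Cwc22 lies on mouse chromosome 2 and was the gene with the highest copy-number signal in the exome data of a pair of murine pancreatic ductal adenocarcinoma (PDAC) cell lines. It was selected on its own measured values (log2 ratio, read depth and B-allele fraction), so these values are a description, and no test supports them. It is 1 of 20429 RefSeq autosomal protein-coding genes that had a segment in either line. Its segment was 1 of 191 segments in WES-15376T and 1 of 235 in WES-14837T.

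The study asked how the RNA-binding protein LIN28B acts in PDAC cells and in the fibroblasts around them, and whole-exome sequencing (WES) was run on genomic DNA of the lines. Both lines were primary cultures from tumors of C57BL/6 mice that carried p48-Cre, ROSA_rtTA (the doxycycline-dependent activator with GFP behind a floxed stop) and 1 floxed Trp53 allele. The p48 (Ptf1a) promoter drives Cre in cells of the pancreatic lineage, and the lines were kept in DMEM with serum and doxycycline. Both carry the genotype label WT, the ages of the mice are not given, and each line stands for 1 tumor. There was 1 WES library per line and no replicate, so no difference between the lines was tested. Where a pair of values is given without names, that of WES-15376T comes first. The RNA samples and the DNA of a wild-type tail were not analysed here. DNA alone cannot show whether the cells carry PDAC markers. Exons were captured with a human exome kit, the labels naming an Agilent kit and the methods a NimbleGen kit, and depth at a mouse exon therefore also depends on how well human baits bind it. The mean depth over autosomal segments was 43.4 and 47.5 reads.

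CWC22 is a spliceosome protein that holds the helicase eIF4A3 and brings it to spliced mRNA, which starts the assembly of the exon junction complex (EJC). The EJC marks where an intron was removed and is read by mRNA export and by nonsense-mediated decay. In the mouse, Cwc22 also sits in a large repeat unit named R2d. The reference strain C57BL/6J has a single unit, R2d1, at the position of Cwc22. Some wild and wild-derived mice, such as WSB/EiJ, carry in addition R2d2, a tandem array of many units several megabases further from the centromere on the same chromosome. High-copy R2d2 alleles are known for being passed on by heterozygous females more often than Mendel's law allows. The units of R2d2 differ from R2d1 at many bases, and since the reference genome holds R2d1 alone, reads from every unit of an R2d2 array align at Cwc22.

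RefSeq places Cwc22 at chr2:77881159-77946356 (GRCm38.p6, minus strand), a gene of 65.2 kb. Its segment ran from 77881383 to 77936665 in both lines, with the same first and last base. It was 55.3 kb long, held 20 bins (the windows over which coverage was averaged), and covered 84.8% of the gene. The last 224 bp at the 3′ end and the first 9.69 kb at the 5′ end of the gene lay outside it. On the 3′ side the next segment ended 500 bp away. On the 5′ side no segment was present for 182 kb in either line, up to 78119163. Values of single bins were not read, so bins left out before segmentation would leave the same gap. That stretch holds the first part of Cwc22, the pseudogene Gm13726, the long non-coding RNA gene Gm52519 and part of another, 4930440I19Rik. The stretch of raised copy number could thus have been as short as 55.3 kb or as long as 238 kb.

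The promoter of Cwc22 is shown because it falls in this gap, 9.69 kb beyond the segment of the gene and 173 kb before the next segment. The RefSeq sequence is the 250 bases before the start site, chr2:77946357-77946606 on the minus strand of GRCm38.p6, with a GC content of 42.8%. Capitals mark 3 matches to ACTACAA (found as TTGTAGT on the other strand), the core of the element bound by ZNF143, which start 94, 64 and 21 bases before the start site.
Cwc22 promoter: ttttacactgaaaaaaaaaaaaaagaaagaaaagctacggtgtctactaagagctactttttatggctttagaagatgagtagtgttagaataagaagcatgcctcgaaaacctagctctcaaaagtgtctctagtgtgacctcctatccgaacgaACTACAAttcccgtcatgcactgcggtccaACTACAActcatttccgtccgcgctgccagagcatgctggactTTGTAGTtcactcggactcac
Among 32851 RefSeq promoter windows of the same length, 923 (2.81%) held at least 1 match on either strand, 52 (0.158%) at least 2, and 3 (0.00913%) at least 3. These letters were picked after the sequence had been read, and a match describes the window without showing a binding site. Whether this promoter was present in the extra copies could not be read, since no segment covers it.

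In WES-15376T the Cwc22 segment had a log2 ratio to the copy-number reference of 3.91, a depth of 1058 reads and a B-allele fraction (BAF) of 0.934. The BAF is the share of reads with the non-reference base at variant sites, and how the sites of a segment were combined is not given in the sources used here. The authors' integer call for the segment was 31 copies, split into 29 and 2. The segment on the 3′ side of the gene (74691932 to 77880882, 3.19 Mb, 551 bins) had a log2 of -0.087, a depth of 55.1 reads and a BAF of 0.0625. The segment on the 5′ side (78119163 to 85887742, 7.77 Mb, 537 bins) had a log2 of -0.013, a depth of 49.8 reads and a BAF of 0.310. Both neighbors were called at 2 copies. Cwc22 stood 3.96 above them in log2, a 15.6-fold step, and its depth was 20.2-fold their mean of 52.5 reads.

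WES-14837T had the same step at the same borders. There the Cwc22 segment had a log2 of 3.62, a depth of 910 reads, a BAF of 0.920 and a call of 25 copies, split into 23 and 2. The segment on the 3′ side (3118514 to 77880882, 74.8 Mb, 7575 bins) had a log2 of -0.060, a depth of 48.1 reads and a BAF of 0.191. The segment on the 5′ side (78119163 to 161216407, 83.1 Mb, 8567 bins) had a log2 of -0.049, a depth of 49.1 reads and a BAF of 0.214. Both were called at 2 copies, and Cwc22 stood 3.68 above them in log2 (12.8-fold) and 18.7-fold above them in depth.

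**Figure D1:**
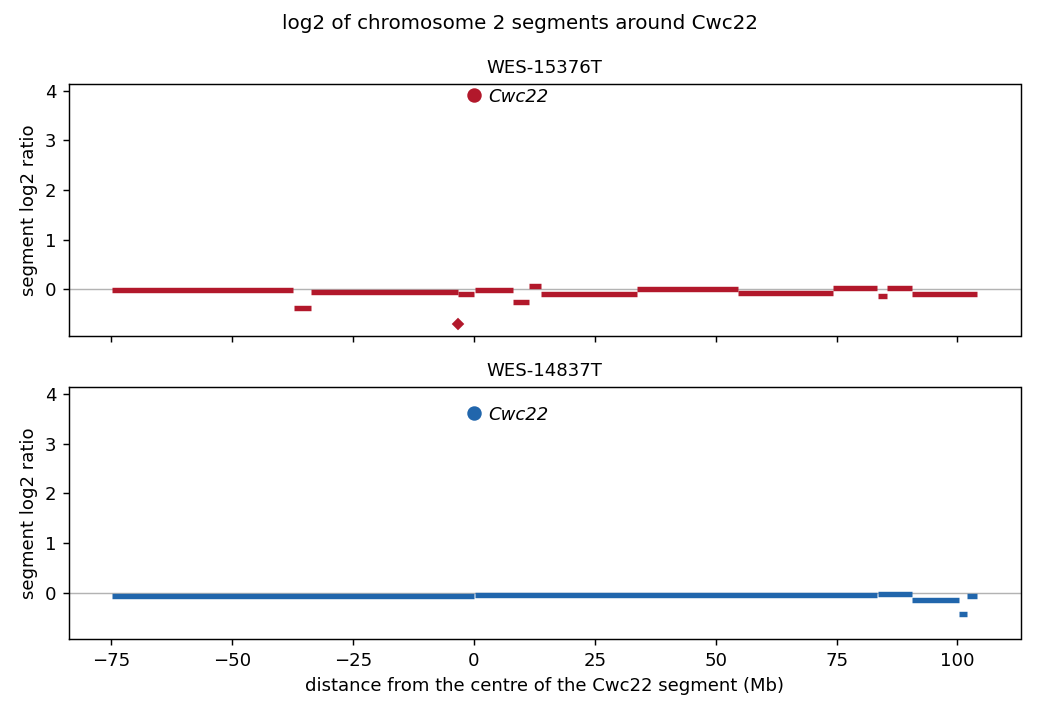
Log2 ratio to the reference (y axis) of each chromosome 2 segment by its distance from the centre of the Cwc22 segment in Mb (x axis), for WES-15376T (top) and WES-14837T (bottom). Bars are segments, the diamond is a segment shorter than 1 Mb, and circles are Cwc22, at 3.91 and 3.62 while all other segments lay between -0.71 and 0.068.

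The gene tables of the authors added no independent measurement, since the Cwc22 entry had the same log2, depth and 20 bins as the segment in each line. Of the genes around it, Zfp385b, which encodes a zinc-finger protein and lies 63.5 kb to the 3′ side, had the log2 of the neighboring segment. So did Sestd1, Ccdc141, Ttn (the giant sarcomere protein titin) and Plekha3, the next protein-coding genes in that direction. On the 5′ side the nearest were Gm14461 at 291 kb and the ubiquitin-conjugating enzyme gene Ube2e3 at 922 kb, followed by Itga4 (an integrin subunit), Cerkl and Neurod1 (a transcription factor of endocrine and neuronal cells). All 10 genes were at 2 copies in both lines, and none was listed in either gene table, where the smallest change listed was 0.40 in absolute log2.

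The copy number of Cwc22 depended on which measurement it was taken from. From the log2 ratio, as 2 times 2 to the power of log2, WES-15376T had 30.1 copies per diploid genome and WES-14837T had 24.6. From depth, as 2 times the depth of the segment over the mean depth of autosomal segments called at 2 copies (46.0 and 47.5 reads), the estimates were 46.0 and 38.3 copies. The depth itself was 23.0-fold and 19.1-fold that of 2-copy segments. Depth gave the higher estimate in both lines.

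The log2 estimate assumes that the copy-number reference, which the sources used here do not name, has 2 copies of Cwc22. If the reference DNA carried more, the log2 estimate would be too low by the same factor. The depth estimate assumes that the baits caught Cwc22 as well as an average exon. The human kit and the identity of the reference were not tested. Segments called at 1 copy had a median log2 of -0.52 and -0.39, nearer to 0 than the -1 that halving the copies of all cells would give. Setting that median to exactly 1 copy raised the log2 estimate to 48.0 and 50.3 copies, so that the order of the lines turned. This setting reads the median loss as a share of cells with the change and gives all other cells 2 copies of Cwc22. Extra copies present in all cells would not be rescaled in this way, and which case holds was not tested.

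At the variant sites behind the BAF, most reads at Cwc22 carried bases that differ from the reference. The number of those sites is not given in the sources used here, so a share for the whole segment is an extrapolation from them. Applied to the whole segment, the BAF of 0.934 divides the depth of 1058 reads in WES-15376T into 989 reads with non-reference bases and 69.4 reads with reference bases. In WES-14837T it divides into 837 and 73.0 reads. The reference-base share was thus of the order of the whole depth of the neighboring segments (49.8 and 55.1 reads in WES-15376T, 48.1 and 49.1 in WES-14837T). In copies from log2, the reference-base share was 1.97 and 1.98, and the rest was 28.1 and 22.7 copies. In copies from depth it was 3.01 and 3.07, and the rest was 43.0 and 35.2 copies. The authors' splits of 29 and 2 and of 23 and 2 come from the same log2 and BAF and are no second measurement.

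**Figure D2:**
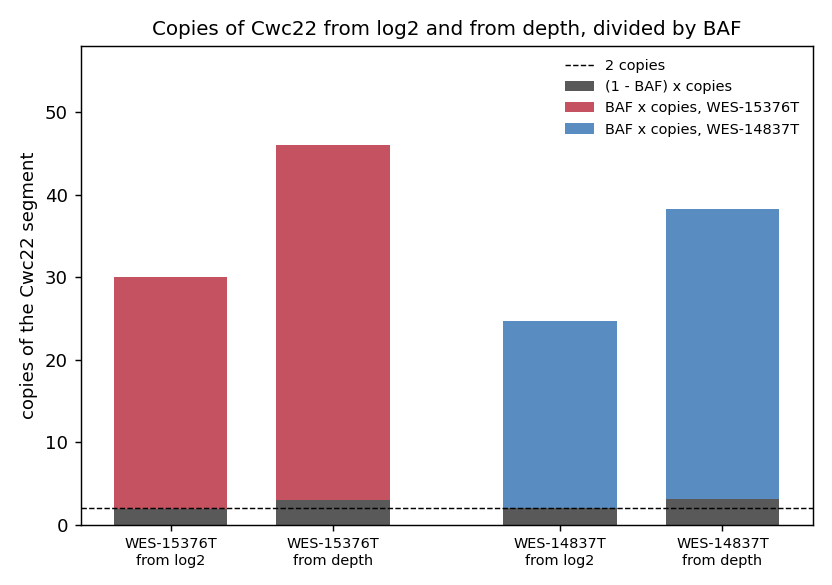
Copies of the Cwc22 segment (y axis) from log2 and from depth in each line, with each bar divided by BAF. The BAF of the variant sites is applied to the whole segment. Gray is the share of copies with reference bases, color the share with non-reference bases, and the dashed line marks 2 copies. The gray part is 1.97 and 1.98 copies from log2, and 3.01 and 3.07 from depth. No error bar is drawn because each line had 1 library.

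Set beside mouse strains, C57BL/6J has the unit R2d1 alone and so 2 copies per diploid genome, at the reference sequence. High-copy R2d2 carriers such as WSB/EiJ have many more, nearly all from units that differ from R2d1. In both lines the estimates were far above 2 by either measurement, although the mice are described as C57BL/6. The reference-base share was near 2 or 3 copies if the BAF of the variant sites holds for the whole segment. Copies inherited by the mouse and copies gained in the tumor or in culture cannot be told apart with these tables, which hold no normal tissue of the same mice. Nor do they show where the extra copies lie, since a read from any unit aligns at the same place.

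The position of R2d2 in the mice that carry it was looked at in the segments 5 to 7 Mb beyond Cwc22 (82946356 to 84946356). In neither line did this stretch form a segment of its own. It lay inside the segment on the 5′ side of Cwc22, at log2 ratios of -0.013 and -0.049, both called at 2 copies. An array missing from the reference genome has no bins there, so these values do not bear on where the copies are.

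The depth of Cwc22 was above what its log2 predicted by similar amounts in both lines. On a log2 scale its depth was 4.52 and 4.26 above that of 2-copy segments, which exceeds the log2 ratio by 0.61 and 0.63. The same difference had a median of -0.016 (SD 0.25) over the other autosomal segments of WES-15376T and 0.023 (SD 0.49) over those of WES-14837T. No other segment of WES-15376T reached the value of Cwc22, the highest being 0.49. In WES-14837T 1 did, a segment with Nlrp1b, an inflammasome sensor gene, whose log2 of -8.74 put its depth 6.61 above its log2.

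**Figure D3:**
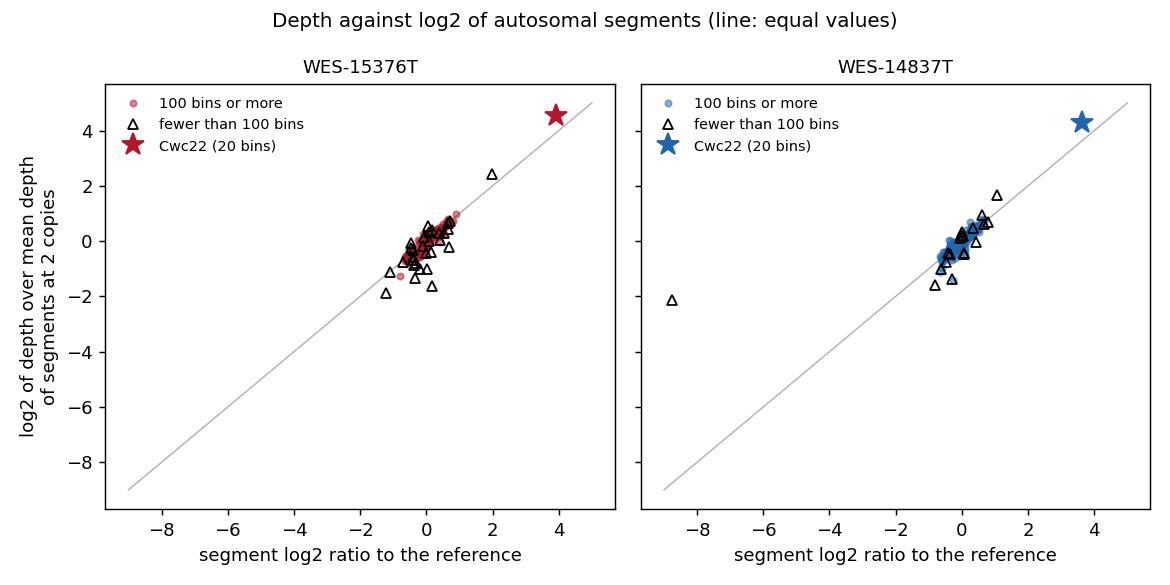
Depth of each autosomal segment as log2 over the mean depth of 2-copy segments (y axis) against its log2 ratio to the reference (x axis), for WES-15376T (left) and WES-14837T (right). Dots are segments of 100 bins or more, triangles segments with fewer, stars Cwc22, and the line marks equal values. Cwc22 lay 0.61 and 0.63 above the line.

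Among single genes a difference of this size was less unusual, but the measure was not the same. The log2 listed for a gene is that of its whole segment, while its depth is its own. For Cwc22 both values come from the same bins, so its place among these genes compares unlike measures. In 1116 genes with at least 10 bins that were listed in both lines, the excess of gene depth over log2 had medians of 0.14 and 0.19, with an SD of 0.41 and 0.40. Cwc22 was above 93.3% and 91.1% of them. The genes at or above it numbered 75 and 99, of which 58 were the same. Across these genes the excess in one line followed that in the other with a Pearson r of 0.95, a description over genes that share the capture kit and exon sequence and are not independent replicates. At Cwc22 the excess of WES-15376T less that of WES-14837T was -0.022, where the SD of the difference over genes was 0.13.

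Cwc22 ranked first by log2 and by depth among 183 and 224 autosomal segments. Gains were common, with 20.8% and 26.3% of autosomal segments called above 2 copies, but high ones were not. In each line 2 segments reached a log2 of 1, Cwc22 and 1 other. The other of WES-15376T was on chromosome 14 (26619269 to 26743270, with Dennd6a, Arf4, Pde12 and the dynein gene Dnah12), at a log2 of 1.99 and a depth of 247 reads, 4.29-fold below Cwc22. That of WES-14837T was on chromosome 3 (144578289 to 145009918, with Sh3glb1, Selenof and Clca1 and other chloride channel accessory genes), at a log2 of 1.06 and a depth of 151 reads, 6.03-fold below. The segments ranked 3 had a log2 of 0.89 (chromosome 8, 45062377 to 49193896, with the innate RNA sensor gene Tlr3 and the clotting factor gene F11) and 0.79 (chromosome 3, 158353979 to 159934364, with Lrrc7, Depdc1a, Rpe65 and Wls).

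Cwc22 was also first by depth among the genes listed, all with an absolute log2 of at least 0.40. Cwc22 had the highest depth of 7960 genes listed for WES-15376T, 4.02-fold that of Dnah12 at 264 reads. It also led the 4755 genes of WES-14837T, 3.36-fold above Gm10636 at 271 reads, which had 1 bin. With at least 5 bins, the next gene of WES-14837T was Clca3a1 at 194 reads.

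The BAF of Cwc22 was also among the highest. It compares with an autosomal median, weighted by length, of 0.077 and 0.0606. Of the 158 autosomal segments with a BAF in WES-15376T, 3 had a higher one than Cwc22 and 8 were above 0.5. In WES-14837T 5 of 193 were higher and 7 were above 0.5.

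The rest of chromosome 2 had no gain, but much of it had a raised BAF. Besides Cwc22, WES-15376T had 15 segments on the chromosome with a log2 from -0.71 to 0.068, of which 12 were called at 2 copies and 3 at 1. In 8 of them, together 105 Mb between 3118514 and 111663716, the BAF was over 2 times the autosomal median and ranged from 0.167 to 0.357. The segment next to Cwc22 on the 3′ side, at 0.0625, was the exception inside that interval. The other 7 segments had a BAF from 0.0625 to 0.126.

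In WES-14837T the chromosome had 6 other segments, with a log2 from -0.43 to -0.018, and 5 of them had a BAF. The segments on both sides of Cwc22, which reach to 161216407 and add up to 158 Mb, had a BAF of 0.191 and 0.214. The 3 beyond had 0.0493 to 0.0714. This split of the chromosome was noticed after the values had been seen. Of all autosomal segments with a BAF, 89.2% were below the 5′ neighbor of Cwc22 in WES-15376T, and 86.0% and 88.6% were below its 3′ and 5′ neighbors in WES-14837T, while 39.9% were below the 3′ neighbor in WES-15376T.

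**Figure D4:**
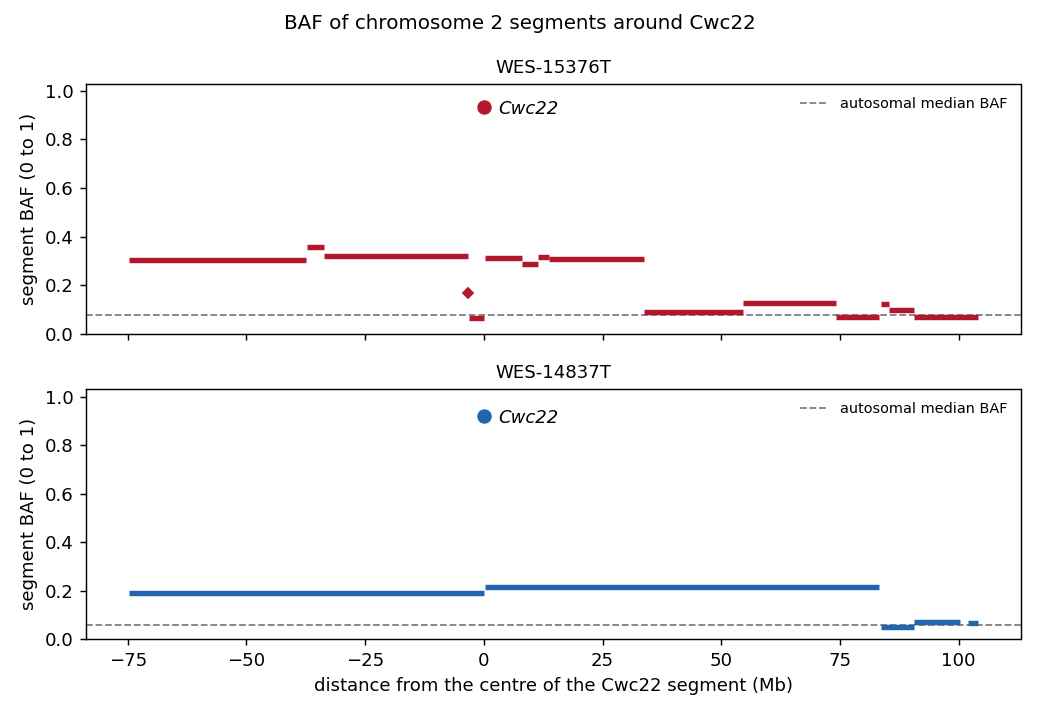
B-allele fraction (y axis) of each chromosome 2 segment by its distance from the centre of the Cwc22 segment in Mb (x axis), for WES-15376T (top) and WES-14837T (bottom). Bars are segments, the diamond is a segment shorter than 1 Mb, circles are Cwc22 (0.934 and 0.920), and dashed lines mark the autosomal medians of 0.077 and 0.0606. Much of the chromosome around the gene lies above the median in both lines.

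WES-15376T had higher values at Cwc22 than WES-14837T in log2 and in depth. Setting the median 1-copy segment to 1 copy turned the order of the copies from log2 (48.0 and 50.3). That setting gives all cells outside the changed share 2 copies of Cwc22. The log2 ratios differed by 0.29 (1.22-fold), the depth over 2-copy segments by 0.26 (1.20-fold) and the depth itself by 1.16-fold. In copies the lines were 5.40 apart from log2 and 7.69 apart from depth. Segments called at 2 copies had an SD of log2 of 0.090 (103 segments) and 0.095 (96 segments), which combine to 0.13. Those segments were called by log2 cutoffs, which bound this SD. The SD is a spread between loci within a line and gives no error for a single locus between lines. Most of those segments had many more bins than the 20 of Cwc22, and in segments with fewer than 100 bins at 2 copies depth ran from 15.0 to 67.5 reads in WES-15376T (11 segments) and from 34.3 to 60.0 in WES-14837T (6 segments). With 1 library per line the difference was not tested.

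No other gene came near Cwc22 in both lines. Of 3475 genes listed for both, the nearest pair of log2 values belonged to Mid1, a ubiquitin ligase gene of the X chromosome that spans the pseudoautosomal boundary in mice, and its neighbor G530011O06Rik, at 0.81 and 1.09. Their distance from Cwc22 was 4.0 in log2 over the 2 libraries. Next were Sh3glb1, Clca3a1 and Clca3a2, at 0.65 and 1.06 and a distance of 4.15, in 1 segment whose other genes tied with them.

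Genes that work with CWC22 or share its domains had no such gain. The list held 34 genes in 4 groups. Each gene took the call of the segment that holds its midpoint, which can hold many genes. In WES-15376T 3 of them were called gained, 21 were at 2 copies and 10 were lost, where 9.04% of all autosomal protein-coding genes were gained and 30.6% lost. In WES-14837T 11 were gained, 13 were at 2 copies and 10 were lost, where 21.1% of all genes were gained and 29.8% lost. The median log2 of the list was -0.026 and -0.033, beside -0.029 and -0.048 over all genes. The highest value was 0.59 and 0.62, in both lines that of Rbm8a.

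Among the 9 EJC genes, Eif4a3, the helicase that CWC22 binds, was at 2 copies in both lines, at 0.050 and 0.040. Rbm8a, which encodes the core subunit Y14, was gained in both, at 0.59 and 0.62. Its partner gene Magoh was lost in both, at -0.59 and -0.39, and the paralogue Magohb was gained in WES-15376T at 0.29 and at 2 copies in WES-14837T at -0.17. Casc3, the remaining core subunit, was at 2 copies, with 0.056 and 0.10. The group thus counted 2 gained, 4 at 2 copies and 3 lost in WES-15376T, and 3 of each in WES-14837T. Over all genes, 9.04% and 21.1% were gained and 30.6% and 29.8% lost, and such small counts were not tested. Acin1 and Sap18, auxiliary EJC factors that share a chromosome 14 segment, made up the rest of the losses in both lines at -0.55 and -0.31.

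The eIF4A paralogues, which act in translation initiation and are not EJC subunits, were split. Eif4a1 was at 2 copies in both lines and the segment of Eif4a2 was called lost in both, at -0.54 and -0.40. The depth of Eif4a2 itself was 0.18 and 0.25 in log2 above the mean of 2-copy segments. Such gene depths also depend on how the baits bind, and among the lost genes they lay on both sides of that mean. For Ctif, a MIF4G domain gene lost in both lines, they were -1.27 and -1.25. Of the 10 genes with MIF4G or MA3 domains, which CWC22 also has, 5 were lost in each line, beside 30.6% and 29.8% of all genes. They included the translation scaffold genes Eif4g1, Eif4g2 and Eif4g3 in both lines. Nom1, a nucleolar protein with the same pair of domains as CWC22, was at 2 copies, with 0.058 and -0.030. Upf2, a nonsense-mediated decay factor, is on chromosome 2 as Cwc22 is, and was at -0.017 and -0.060.

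Of the 13 spliceosome genes, 1 and 6 were gained, beside 9.04% and 21.1% of all genes. In each line 1 was lost, beside 30.6% and 29.8% of all genes. The difference between the lines in these counts was not tested. Prpf19, a core factor of the activated spliceosome, was gained in both at 0.42 and 0.50. Crnkl1, another gene of chromosome 2, was at 2 copies in both. Across the 34 genes, 2 were gained in both lines (Rbm8a and Prpf19), 8 were lost in both and 11 were at 2 copies in both. The share of all genes with the same call in both lines was not computed, so these counts say nothing particular about the list. Some of the genes share a segment, such as Acin1 and Sap18 or Eif4a2 and Eif4g1, and are not independent.

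**Figure D5:**
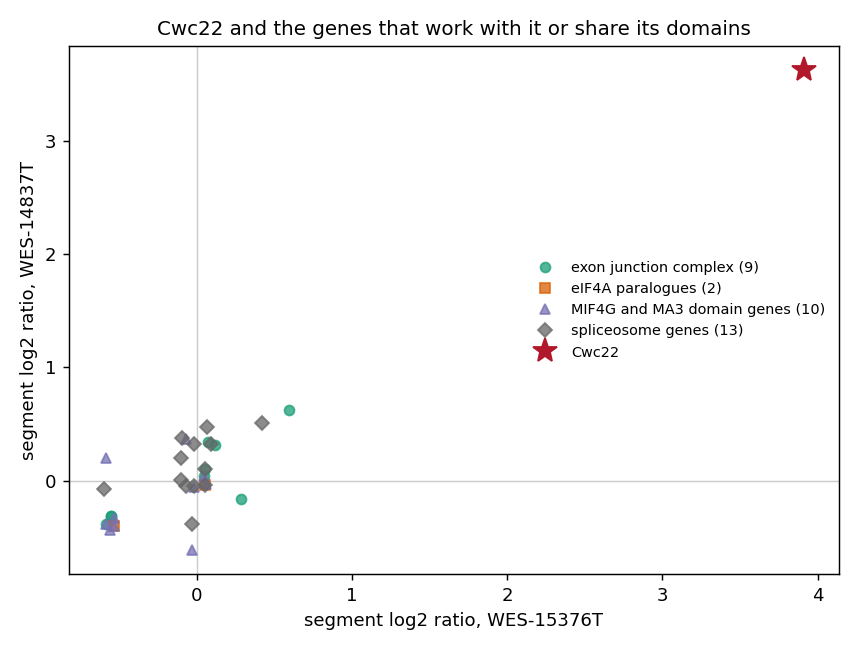
Segment log2 ratio in WES-14837T (y axis) against WES-15376T (x axis) for 34 genes that work with CWC22 or share its domains, by group, and for Cwc22 (star). The 34 genes lay between -0.60 and 0.59 in WES-15376T and between -0.62 and 0.62 in the other line, while Cwc22 lay at 3.91 and 3.62.

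Other genes known to vary in copy number between mouse strains were taken for comparison, 10 in all, of which 9 could be placed in a segment. In WES-15376T 3 were gained, 4 were at 2 copies and 2 were lost. There the gained Klra1 and Klra4 share a segment, as do the lost Skint1 and Mup3, so these counts are not of independent genes. In WES-14837T 4 were gained, 3 were at 2 copies and 2 were lost. Over all genes, 9.04% and 21.1% were gained and 30.6% and 29.8% lost. The highest in WES-15376T was Amy2b, a pancreatic amylase gene, at 0.51, with 0.42 in the other line. The highest in WES-14837T were Ide, the insulin-degrading enzyme gene, and Fgfbp3 in the same segment, at 0.48, with 0.065 in the other line. Klra1, a natural killer cell receptor gene, was at 0.33 and -0.045. Glo1, the glyoxalase gene that lies in a duplication in many laboratory strains, was at 0.074 and 0.34. Nlrp1b was at 0.056 and -8.74. None reached a log2 of 1, and each of these genes took the value of a segment that can hold many genes.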

How the data were processed

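WES of 2 murine PDAC lines, 1 library each, was read from segment and gene tables with the columns of CNVkit. The log2 ratios deposited by the authors compare coverage with a reference not given in the sources used here, as are the aligner and caller. BAF was deposited as a fraction per segment, blank where no variant was used. Depth was deposited as an unnormalized coverage signal, and the deposited weight score was not used. Integer copies were called by the authors. The build was mm10 per the submitters' processing notes, and genes and promoters came from RefSeq on GRCm38.p6. Starts were written counting from 1.

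A gene took the segment holding its midpoint. Depth means and neighbor means were weighted by bins. Excess was log2 of depth over the 2-copy mean, less log2. The copy formulas returned the known copies on simulated data. Those data were made with the same formulas, so this checks the code and not the assumptions behind the estimates. Python 3.11.15, numpy 2.4.6, pandas 2.3.3 and matplotlib 3.10.9 were used. No test was run. Named genes were Cwc22, 5 neighbors per side, the role and strain-variation lists, genes of the segments ranked 2 and 3, and the 5 nearest in log2 (Euclidean). Cwc22 and the lists were chosen with earlier results of these data known. A further engineered allele of the mice is not reported here.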

Additional observations from a re-analysis of the deposited data

How the results depend on the processing

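Of 44 alternative values, 39 stayed close to the reported ones and 5 moved. Some of the 39 could not move, since the gene's own entry repeats the values of its segment. The count is therefore no measure of robustness. Setting the median 1-copy segment to exactly 1 copy moved the copies from log2 to 48.0 in WES-15376T (30.1 as reported). In WES-14837T it moved them to 50.3 (24.6 as reported). Both moves follow from its construction, which gives all cells outside the changed share 2 copies of Cwc22. Calling genes of the CWC22 lists at an absolute log2 of at least 0.5 left 1 gained in WES-15376T (3 as reported), and 2 gained (11) and 1 lost (10) in WES-14837T. With other depth references, copies from depth ran from 40.3 to 49.6 in WES-15376T and from 37.4 to 38.7 in WES-14837T. Recentring on the autosomal median gave Cwc22 a log2 of 3.95 and 3.67. The rank of Cwc22 by log2 and depth was 1 under each alternative run, but the gene was chosen for its high values, so this rank adds no support.

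No paired analysis was possible because with 1 library a line no pairs exist and no test was made. Without replicates, and with 20 bins at Cwc22, the precision of its copy number is unknown. Depth is not limiting at Cwc22, but no segment covers its 5′ end.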
